A study of Mus musculus with 12 samples.

Results

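The nuclear genes for the subunits of the oxidative phosphorylation complexes were followed in the RNA of mouse livers. The members were the protein-coding rows of the count table whose mouse symbol is Sdha, Sdhb, Sdhc or Sdhd, or begins with Ndufa, Ndufb, Ndufc, Ndufs, Ndufv, Uqcr, Cox4i, Cox5, Cox6, Cox7, Cox8 or Atp5, with pseudogenes and the assembly factors named Ndufaf left out. This rule uses no measured value and gave 83 genes of the 28036 rows. Complex I had 36 of them, complex II 4, complex III 8, complex IV 18 and complex V 17. Ndufa4 and Ndufa4l2 were counted with complex IV, where the Ndufa4 protein resides. A filter on low counts left 79 members to be tested, and the other 4 (Cox4i2, Cox6a2, Cox6b2 and Cox8b) all belong to complex IV.

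The 12 samples are livers of C57BL/6J mice, in 4 groups of 3. EE livers came from mice in which a high-fat diet had produced MASH, a fatty liver disease with inflammation, over 8 weeks, and which then received Eleutheroside E, a plant lignan glycoside, by mouth in a dose of 100 mg/kg during 4 weeks. Resmetirom livers came from the same model given 3 mg/kg of resmetirom, an agonist of the thyroid hormone receptor beta, over the same time. MASH livers came from model mice given only the vehicle, 0.5% CMC-Na, and control livers from mice on normal chow given that vehicle. All samples are labelled 12 weeks. The labels used here do not state age, sex or whether the high-fat diet went on during dosing. Nothing in the labels says that replicates are separate mice, so p-values measure the spread between these samples, which may be technical.

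Oxidative phosphorylation makes ATP in the inner mitochondrial membrane. Complexes I and II pass electrons from NADH and succinate to ubiquinone, complex III passes them on to cytochrome c, and complex IV hands them to oxygen, while complex V, the ATP synthase, uses the proton gradient that complexes I, III and IV build. Complexes I, III, IV and V each combine nuclear-encoded subunits with others made from mitochondrial DNA, and complex II is wholly nuclear. Hepatocytes are rich in mitochondria, which burn the fatty acids that accumulate in fatty liver.

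The libraries held 17297865 to 21793326 counts. Of the counts, 35.4% in control 1 and 2.40% to 4.38% in the other 11 libraries fell on the 13 protein genes of mitochondrial DNA. The major urinary protein (Mup) genes took 35.7% of resmetirom 2 and 3.33% to 16.0% elsewhere. Over all tested genes, the correlation between replicates was 0.978 to 0.980 in EE livers, 0.903 to 0.948 in resmetirom livers, 0.979 to 0.983 in MASH livers and 0.892 to 0.984 in control livers. Control 1 and resmetirom 2 stood apart, and the main results that rest on them are given with and without them. All 10 hepatocyte markers were detected, and Alb, the gene for serum albumin, lay between 38771 and 110649 CPM (counts divided by the scaled size of the library). In bulk tissue, fewer cells of a type and less RNA per cell cannot be told apart.

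Levels differed widely among the subunits. Per kilobase of transcript, the highest means over the 12 libraries were those of Atp5b, the catalytic beta subunit of ATP synthase, at 583 CPM per kb, and Cox4i1, the common form of complex IV subunit 4, at 555 CPM per kb. Next came Cox6a1 and Atp5g3 at 462 CPM per kb each and Atp5a1, the alpha subunit of ATP synthase, at 379 CPM per kb. The low end held Atp5s, at 2.00 CPM per kb, and several isoforms. Cox7a1, the form of heart and skeletal muscle, had 2.69 CPM per kb, against 149 CPM per kb for its partner Cox7a2. Ndufa4l2, a relative of Ndufa4 known to be induced by low oxygen, had 1.71 CPM per kb, against 302 for Ndufa4. Atp5g1, Atp5g2 and Atp5g3 encode the same mature c subunit of ATP synthase, and had 43.3, 6.68 and 462 CPM per kb. The value of Atp5g1 is divided by a principal transcript of 4660 bases, against 586 and 714 bases for the other two, and not per length the 3 genes had 202, 3.91 and 330 CPM. The untested Cox4i2, Cox6a2 and Cox8b, known from lung and muscle, had 0.108, 0.107 and 0.0716 CPM per kb, and Cox6b2, the testis form, 0.542 CPM per kb. Cox6b2 had 43 counts in resmetirom 1 and at most 6 in each of the other 11 libraries.

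The middle of the module was nearly the same in all EE livers and in all MASH livers, and was spread out in the other groups. The median member, on the log2 CPM scale relative to the mean of MASH livers, stood at 0.23, 0.24 and 0.24 in EE 1, 2 and 3. It stood at −0.24, 1.15 and 0.31 in resmetirom 1, 2 and 3, at −0.01, −0.02 and 0.04 in MASH 1, 2 and 3, and at 1.04, 0.04 and 0.02 in control 1, 2 and 3. On this scaled measure, EE livers thus lay above MASH livers by a small and even step, and control 2 and 3 lay beside MASH livers. As an unscaled share of all counts, the members were not higher in EE livers. They took 1.14%, 1.11% and 1.14% in EE 1, 2 and 3, and 1.20%, 1.12% and 1.23% in MASH 1, 2 and 3. Single members varied as little within EE livers (median coefficient of variation 4.28%) as within MASH livers (4.96%), against 51.5% in resmetirom and 51.0% in control livers.

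**Figure D1:**
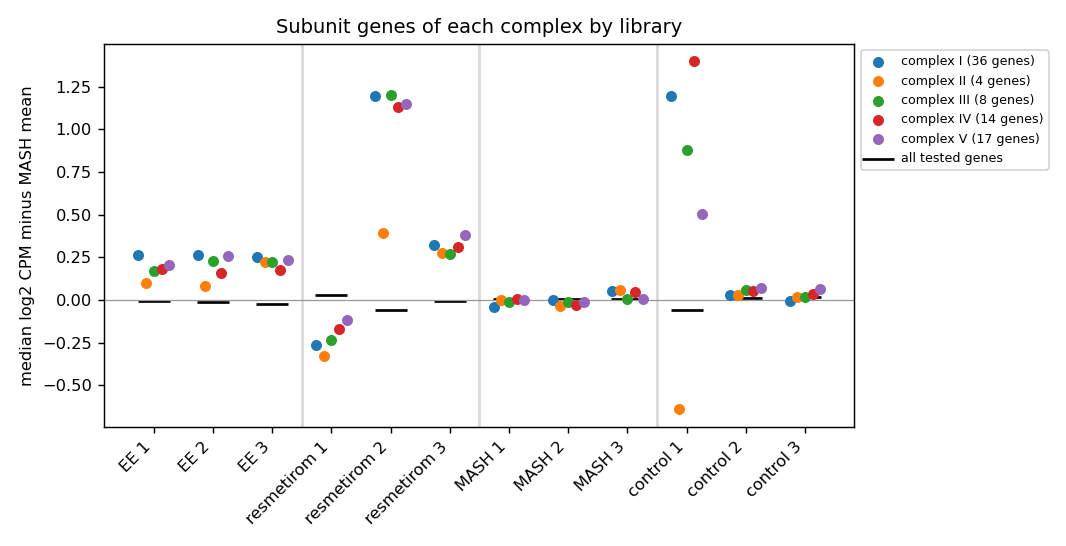
Median log2 CPM minus the mean of MASH livers (vertical axis) for the tested genes of each complex in each of the 12 libraries (horizontal axis), with a black bar for all 13988 tested genes. The 5 complexes lie together between 0.08 and 0.27 in the EE libraries, and spread apart in control 1, where complex II is at −0.64 and complex IV at 1.40.

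EE livers against MASH livers asks what Eleutheroside E did to the model. Relative to MASH livers, 72 of the 79 members were estimated higher and 7 lower in EE livers, with a median log2 fold change of 0.23, while that of all 13988 tested genes was −0.02 and 47.6% of them were positive. In 54 members (68.4%) all 3 EE livers lay above all 3 MASH livers, against 16.7% of all tested genes, and in 0 members all lay below, against 15.5%. No member passed the edgeR test in the fit of all 12 libraries, where 1 gene of 13988 was called (0.00715%). Of the members 0 had an unadjusted p below 0.05 (7.49% of all genes did). DESeq2, limma voom and voom with quality weights also called 0 members, and the shares of all genes they called are not given here. The direction depends on scaling: without scaling factors the member median was −0.07, and that of all genes −0.32, so that members lay 0.25 above all genes with either scaling.

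A fit of the 6 EE and MASH libraries alone, which leaves out the wide spread of the other groups, called 11 members (13.9%), all higher in EE livers, where 746 of 13248 genes were called (5.63%) and 2.95% were called higher. They were Ndufa3, Ndufb9, Ndufb10, Ndufb11, Ndufs3, Ndufs7 and Ndufv3 of complex I, Uqcr11 of complex III, Cox4i1 of complex IV, and Atp5e and Atp5o of complex V. Their log2 fold changes in that fit were 0.34 to 0.54, with adjusted p of 0.0294 to 0.0499. Same-numbered EE and MASH livers deviated together in these data, though the labels state no pairing. With the numbers as a block, the same 6 libraries gave 34 members (43%), all higher. In that fit 20.7% of genes were called and 10.6% were called higher, and its calls depend on a pairing taken from the same data. With offsets for length and GC content the same libraries gave 4 members (Ndufb2, Ndufb7, Atp5g1 and Atp5l, 0 of them among the 11 above, where 4.38% of genes were called and 3.38% were called higher), and offsets with the block gave 18 (15.1% and 10.9%). These calls changed with the libraries kept. The fit without the block called 0 members without MASH 1, MASH 2, EE 2 or EE 3. The share of all genes called in those fits is not given here, so the 0 is not a result about members. The same fit called 4 without EE 1 (Ndufa3, Ndufb10, Ndufs7 and Atp5o), where 5.32% of genes were called and 2.59% were called higher. Without MASH 3 it called 11 (5.87% and 2.73%). Without scaling factors it called 6 members lower and 0 higher, where 23.0% of genes were called and 22.1% were called lower.

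Hepatocyte and stellate cell markers differed beside this step. Summed over 10 markers, hepatocyte RNA came to 110218 to 118916 CPM in EE livers and 85445 to 97619 CPM in MASH livers, and 7 of the 10 markers lay higher in all EE livers than in any MASH liver. Stellate cell markers summed to 131 to 188 CPM in EE livers and 231 to 262 CPM in MASH livers, with 5 of 8 lower in all EE livers. Kupffer cell markers summed to 446 to 573 CPM in EE livers and 381 to 478 CPM in MASH livers, which overlap, and 2 of 10 lay higher without overlap. Of all tested genes, 16.7% lay higher and 15.5% lower without overlap. No marker of these lists was at 0 in all libraries. Their part in the result was not tested.

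The upstream stretches of 5 members are shown. All 5 were picked because they lay higher in all EE livers than in any MASH liver. They also had to carry motifs of factors known for promoters of this kind. Whether such motifs go with the step was not tested. Each stretch is the 120 bases before the annotated start, on the gene's strand and 5′ to 3′. The bases come from RefSeq on GRCm38.p6, an older build than the GRCm39 of the count table. Capitals mark a motif match: the core of the element bound by ZNF143 in Ndufa3 (chr7:3617253-3617372, plus strand) and Atp5o (chr16:91931631-91931750, minus strand); CCGGAAGT, the ETS element read by GABP, in Uqcr11 (chr10:80406822-80406941, minus strand); and the palindrome of NRF1 in Atp5k (chr5:108434400-108434519, minus strand) and Ndufa11 (chr17:56717642-56717761, plus strand).
Ndufa3: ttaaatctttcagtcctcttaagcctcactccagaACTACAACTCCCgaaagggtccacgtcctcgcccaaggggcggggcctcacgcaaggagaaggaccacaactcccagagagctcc
Atp5o: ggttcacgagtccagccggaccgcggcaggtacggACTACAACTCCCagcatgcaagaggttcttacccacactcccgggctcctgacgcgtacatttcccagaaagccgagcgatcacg
Uqcr11: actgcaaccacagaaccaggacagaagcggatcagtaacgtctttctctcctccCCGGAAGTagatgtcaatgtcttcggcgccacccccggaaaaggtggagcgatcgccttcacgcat
Atp5k: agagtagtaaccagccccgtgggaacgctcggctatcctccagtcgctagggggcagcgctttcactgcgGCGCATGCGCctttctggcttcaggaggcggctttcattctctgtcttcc
Ndufa11: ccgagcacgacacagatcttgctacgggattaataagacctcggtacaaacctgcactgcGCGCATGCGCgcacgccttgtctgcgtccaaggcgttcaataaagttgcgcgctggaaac

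A RefSeq window was found for 64 of the 79 tested members, and motifs were searched on both strands of the 250 bases before the start. The shares are set beside those of all 27025 genes with a window, whether tested here or not. The 64 members all passed the filter on low counts, so the 2 sets are not alike in expression. The NRF1 palindrome, spelled by the capitals in Atp5k, stood in 4 of 64 member windows (6.25%) and in 0.877% of those of 27025 genes. A looser form with any 2 bases in its centre, which includes the strict one, stood in 15 (23.4%) and 5.64%. The ZNF143 core, spelled by the capitals in Ndufa3 but with any 2 bases after the first 6, was added to the search after these sequences had been read, and stood in 7 (10.9%) and 1.92%. CCGGAAGT stood in 3 (4.69%) and 3.23%, AAGATGGCG, the YY1 element, in 1 (1.56%) and 0.71%, and TCAAGGTCA, the element of the estrogen-related receptors, in 1 (1.56%) and 0.422%. TATAAA, the TATA box, stood in 5 (7.81%) and 14.3%. Not all members with these motifs shared the step of EE over MASH livers. The ZNF143 core also stood in Cox7b and Cox7c, and the NRF1 palindrome in Atp5g2, and these overlapped between the groups. Of the members not shown with either motif, Atp5d, Ndufv1, Uqcr10 and Cox6a1 did not overlap. All of these are matches of letters, not sites shown to be bound.

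Complex I held 26 of the 54 members without overlap (of 36 tested), with a median log2 fold change of 0.27 for EE against MASH livers. Ndufa3, a small accessory subunit, had 53.9, 48.0 and 52.7 CPM in EE 1, 2 and 3, against 32.1, 35.5 and 37.9 CPM in MASH 1, 2 and 3. The groups did not overlap, and its log2 fold change was the largest of the 79 (0.55, SE 0.72, edgeR adjusted p = 0.892 in all 12 libraries). Ndufv1, the NADH-binding flavoprotein, had 168, 169 and 181 CPM in EE livers and 124, 131 and 144 CPM in MASH livers. Ndufs7 and Ndufs3, core subunits of the arm that carries electrons to ubiquinone, averaged 55.9 ± 1.78 and 120.1 ± 7.63 CPM in EE livers and 41.5 ± 1.01 and 93.0 ± 0.289 CPM in MASH livers (SD, n = 3 each). Ndufs1, the largest core subunit, did not share the step: it had 93.6, 96.3 and 113 CPM in EE livers, within which the 102, 107 and 104 CPM of MASH livers fall.

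The other core subunits of complex I mostly shared the step. Ndufs8, an iron-sulfur subunit beside Ndufs7, had 66.4, 77.3 and 71.7 CPM in EE livers, against 54.2, 57.5 and 54.4 CPM in MASH livers. Ndufv2, the partner of Ndufv1 at the NADH site, had 77.4, 79.7 and 75.3 CPM in EE livers, against 66.3, 73.4 and 65.5 CPM in MASH livers. Neither gene overlapped between the groups. Of the membrane-arm accessory subunits, Ndufb10 had 115, 121 and 130.4 CPM in EE livers, against 84.6, 84.6 and 93.1 CPM in MASH livers, and Ndufb9 had 165, 169 and 173 CPM in EE livers, against 131, 129 and 134 CPM in MASH livers. Ndufb7 had 61.3, 66.5 and 65.3 CPM in EE livers, against 43.4, 44.8 and 55.2 CPM in MASH livers. Ndufa11, whose promoter is shown, had 45.2, 42.6 and 50.5 CPM in EE livers, against 35.4, 37.3 and 39.3 CPM in MASH livers. The 10 members of the complex with overlap included Ndufab1, the mitochondrial acyl carrier protein, with 56.4, 61.5 and 60.5 CPM in EE livers and 55.9, 54.3 and 58.2 CPM in MASH livers. Ndufs4, an accessory subunit whose loss causes complex I deficiency, had 42.6, 46.6 and 42.1 CPM in EE livers and 44.9, 47.6 and 41.3 CPM in MASH livers. Ndufa6 leaned lower, with 81.9, 76.8 and 76.1 CPM in EE livers and 86.3, 82.2 and 78.2 CPM in MASH livers.

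In complex II, the succinate dehydrogenase, 2 of 4 members lay higher without overlap. Sdhb, its iron-sulfur subunit, had 184, 191 and 187 CPM in EE livers and 141, 142 and 159 CPM in MASH livers. Sdhc, a membrane anchor, had 183, 192 and 198 CPM in EE livers and 169.6, 159.7 and 179.6 CPM in MASH livers, also without overlap. The flavoprotein Sdha averaged 537 ± 42.6 CPM in EE livers and 502 ± 10.6 CPM in MASH livers, and Sdhd, the other anchor, 157 ± 4.69 CPM in EE livers and 164 ± 8.22 CPM in MASH livers (SD, n = 3 each). Both of these overlapped between the groups.

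In complex III all 8 members were estimated higher in EE livers, and 6 had no overlap. Uqcrc1, a core subunit on the matrix side, had 298, 300.1 and 329.6 CPM in EE livers, against 234, 234 and 249 CPM in MASH livers (log2 fold change 0.37, SE 0.27, adjusted p = 0.81). Uqcrc2, the other core subunit, had 242, 245 and 255 CPM in EE livers, against 216, 226 and 221 CPM in MASH livers. Uqcr11, a small subunit whose promoter is shown, had 109, 111 and 112 CPM in EE livers, against 84.9, 85.3 and 90.2 CPM in MASH livers, and Uqcrh, the hinge protein near cytochrome c1, had 118, 120.5 and 113 CPM in EE livers, against 96.4, 94.5 and 96.4 CPM in MASH livers. All of these were separate. Uqcrfs1, the Rieske iron-sulfur protein that passes electrons to cytochrome c1, overlapped, with 158, 170.1 and 178 CPM in EE livers and 162, 169 and 158 CPM in MASH livers.

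Complex IV was divided. Cox4i1 had 383, 397 and 408 CPM in EE livers and 296, 291 and 319 CPM in MASH livers, and Cox5a, Cox5b, Cox6a1, Cox6b1, Cox7a2 and Cox8a also lay higher without overlap. Cox6b1, on the side of cytochrome c, had 162, 160.4 and 172 CPM in EE livers, against 126, 124 and 135 CPM in MASH livers, and Cox6a1 had 249, 245 and 262 CPM in EE livers, against 208, 209.8 and 226 CPM in MASH livers. Cox7a2 had the smallest log2 fold change of the 54 separate members (0.12), with 92.9, 96.2 and 94.8 CPM in EE livers and 86.6, 89.6 and 84.3 CPM in MASH livers. Cox6c, Cox7b, Cox7c and Ndufa4, all small accessory subunits, overlapped between the groups. Cox6c had 112, 98.8 and 87.7 CPM in EE livers, against 111, 115 and 101 CPM in MASH livers, and Ndufa4 had 205, 187 and 183 CPM in EE livers, against 190.2, 196 and 181 CPM in MASH livers. Cox6c and Cox7b were also among the 6 members that the 6-library fit without scaling factors called lower, with Ndufa6, Ndufs1, Ndufs4 and Sdhd.

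In complex V all 17 members were estimated higher in EE livers, 13 of them without overlap. Atp5b had 1199, 1231 and 1348 CPM in EE livers, against 1046, 998 and 1076 CPM in MASH livers. Atp5o, the stalk subunit also called OSCP, had 146, 152 and 154 CPM in EE livers, against 112, 112 and 110.3 CPM in MASH livers, with no overlap and the largest log2 fold change of the complex (0.44, SE 0.36, adjusted p = 0.824). Atp5a1 had 1022, 1026 and 1115 CPM in EE livers, against 875, 867 and 942 CPM in MASH livers, and Atp5d had 235, 248 and 262 CPM in EE livers, against 189.9, 185 and 214 CPM in MASH livers, and neither overlapped. Of the c subunit genes, Atp5g1 had 172, 171 and 177 CPM in EE livers and 141, 122 and 139 CPM in MASH livers, and the dominant Atp5g3 had 359, 347 and 356 CPM in EE livers and 318, 300.3 and 310.5 CPM in MASH livers, both separate. Atp5k, whose promoter is shown, had 36.1, 34.8 and 31.9 CPM in EE livers, against 24.5, 24.1 and 29.3 CPM in MASH livers. Atp5f1, the b subunit of the stalk, had the smallest difference of the complex, with 205 ± 5.38 CPM in EE livers and 203 ± 10.5 CPM in MASH livers (SD, n = 3 each).

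**Figure D2:**
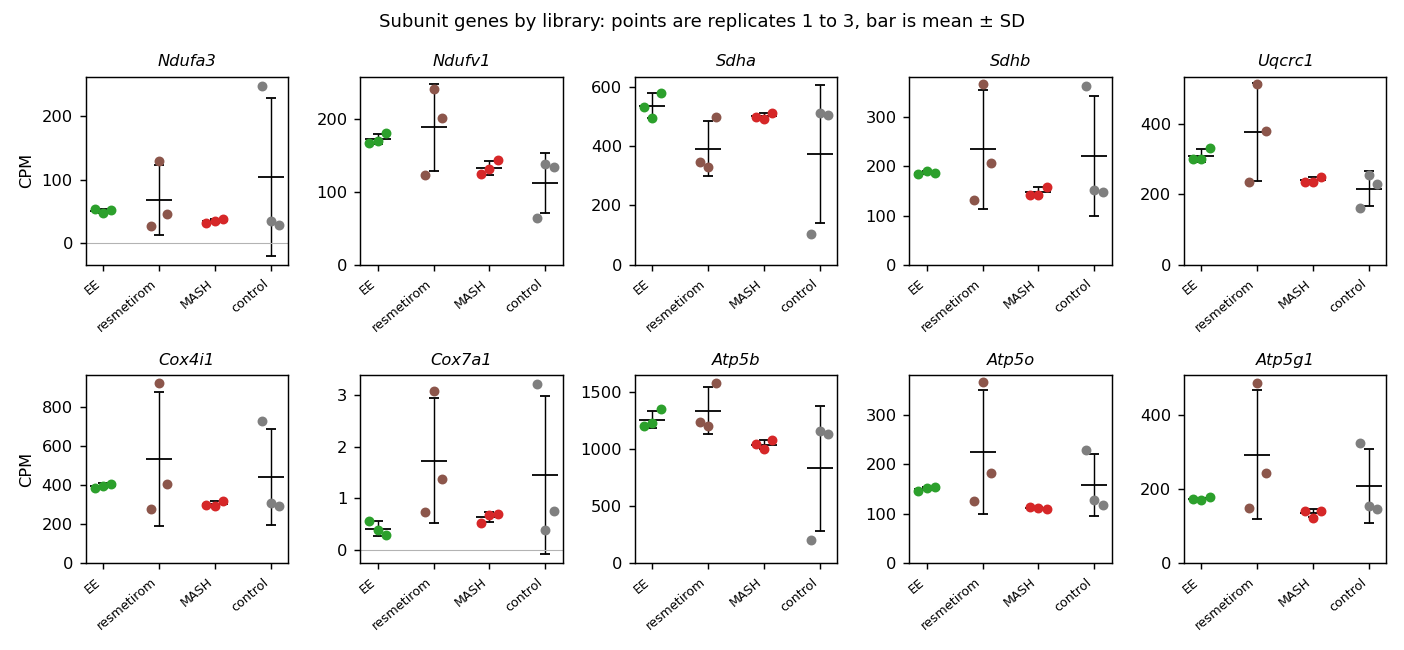
CPM (vertical axes, from 0 or below where the SD bar reaches below 0) of 10 members in EE, resmetirom, MASH and control livers, with a point for each of the 3 replicates in order and a bar for the mean ± SD. EE and MASH points are close together and separate for all but Sdha and Cox7a1, while resmetirom 2 and control 1 lie far from the other points of their groups in most panels.

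Resmetirom livers against MASH livers asks what the thyroid receptor agonist did in the same model. The members leaned upward here too, but 1 library carried most of it. Of the 79, 73 were estimated higher in resmetirom livers (54.2% of all tested genes), with a median log2 fold change of 0.54 (all tested genes 0.06), and without resmetirom 2 the median was 0.04. Resmetirom 2 had 76 members above the mean of MASH livers and resmetirom 3 had 68, whereas resmetirom 1 had 10. Only 6 members (7.59%) lay higher without overlap, against 11.6% of all tested genes. No member passed edgeR or DESeq2 (0.665% of genes passed edgeR), 5 had an unadjusted p below 0.05, all higher (15.0% of all genes), limma voom called 0, and voom with quality weights called 4, all higher in resmetirom livers, where 5.78% of genes were called and 3.02% were called higher. These 4 were Atp5d, Atp5g1, Atp5o and Uqcrc1. By complex the medians were 0.54 for complex I (35 of 36 estimated higher), 0.17 for complex II (2 of 4), 0.57 for complex III (8 of 8), 0.57 for complex IV (11 of 14) and 0.54 for complex V (17 of 17). Without control 1 and resmetirom 2 they were 0.04 (23 of 36), 0.00 (2 of 4), 0.02 (4 of 8), 0.08 (9 of 14) and 0.11 (12 of 17) in the same order. Resmetirom 1 differed from its group in cell markers too, with 57504 CPM of hepatocyte, 976 CPM of Kupffer cell and 612 CPM of stellate cell RNA. Resmetirom 2 and 3 had 98421 and 85976 CPM of hepatocyte, 383 and 485 CPM of Kupffer cell and 143 and 196 CPM of stellate cell RNA. Their part in the members' levels was not tested.

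Atp5o had 127, 367 and 183 CPM in resmetirom 1, 2 and 3, against 112, 112 and 110.3 CPM in MASH livers. All 3 were above MASH livers, with a log2 fold change of 1.01 (SE 0.36, edgeR adjusted p = 0.22), and 0.47 without control 1 and resmetirom 2 (SE 0.15, adjusted p = 0.102). Atp5g1 had 148, 487 and 241 CPM in resmetirom livers, against 141, 122 and 139 CPM in MASH livers (1.12 on the log2 scale, adjusted p = 0.225, and 0.54 without those libraries, adjusted p = 0.116). Atp5b had 1235, 1204 and 1578 CPM in resmetirom livers, against 1046, 998 and 1076 CPM in MASH livers. It was the one member with no overlap here whose level in resmetirom 2 was the lowest of its group. Atp5d, the delta subunit, had 204, 511 and 303 CPM in resmetirom livers and 189.9, 185 and 214 CPM in MASH livers, where resmetirom 1 falls within MASH livers. Uqcrc1 had 235, 512 and 379 CPM in resmetirom livers, against 234, 234 and 249 CPM in MASH livers. Cox5a, a matrix-side subunit of complex IV, had 115, 245 and 158 CPM in resmetirom livers, against 113, 105 and 100.0 CPM in MASH livers.

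Without resmetirom 2 and control 1, the 3 members with the smallest p were estimated lower in resmetirom than in MASH livers, though none passed the test. They were Cox6c, Ndufa4 and Cox7b, named after their values were seen. Cox6c had 70.3 and 81.1 CPM in resmetirom 1 and 3, below the 111, 115 and 101 CPM of MASH livers, and 166 CPM in resmetirom 2. Its log2 fold change against MASH livers was −0.53 without those 2 libraries (SE 0.14, adjusted p = 0.0649) and −0.05 with them. Ndufa4 was at −0.44 (SE 0.13, adjusted p = 0.082) and Cox7b at −0.44 (SE 0.14, adjusted p = 0.1) in that fit, where 50 members were estimated higher and 29 lower.

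**Figure D3:**
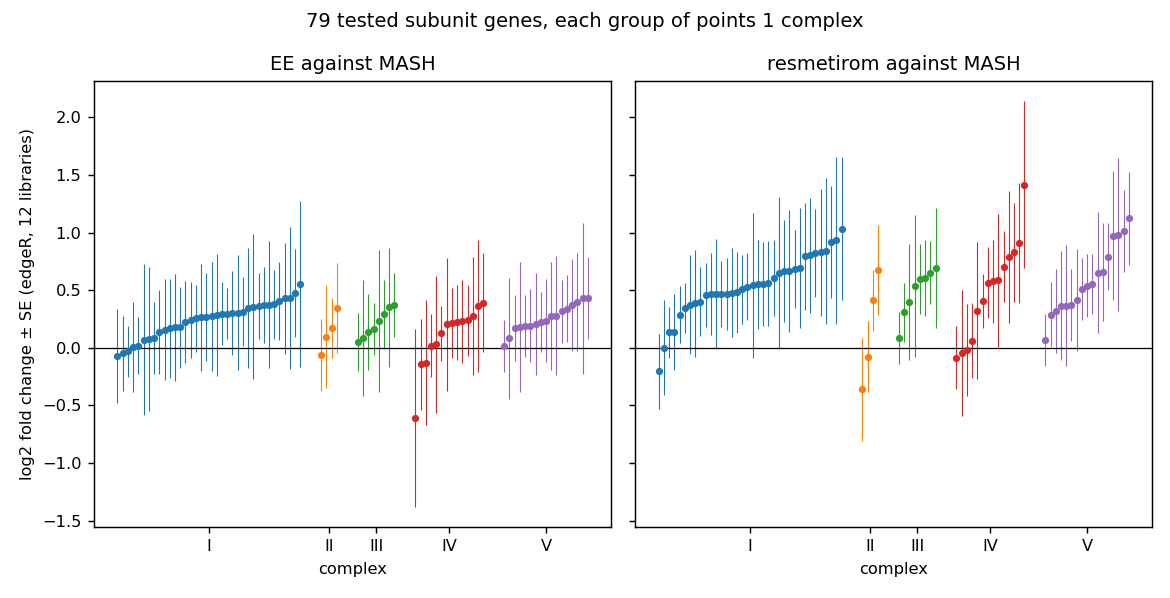
Log2 fold change ± SE (vertical axis) of each tested member in EE against MASH livers (left) and resmetirom against MASH livers (right), with members grouped by complex along the horizontal axis and ranked within it. Most points lie above 0 in both panels, 72 of 79 for EE and 73 of 79 for resmetirom, and many of the EE bars reach below 0.

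MASH livers against control livers asks what the diet did. Of the 79 members, 64 were estimated lower and 15 higher in MASH livers (48.4% of all genes were higher), with a median log2 fold change of −0.42 (all genes −0.02), and this rests on control 1: without it the median was −0.02. In 12 members (15.2%) all MASH livers lay below all control livers, against 9.41% of all tested genes. No member passed edgeR (0.0143% of genes did), DESeq2 or either voom fit, and 3 had an unadjusted p below 0.05, all lower (9.23% of all genes). These were Ndufa5, Cox7c and Cox6c. Ndufa5, an accessory subunit, had 21.6, 23.5 and 25.6 CPM in MASH livers, against 184, 25.3 and 27.3 CPM in control 1, 2 and 3 (log2 fold change −1.74, SE 0.67, adjusted p = 0.519, and −0.15 without control 1 and resmetirom 2). Cox7c, a small subunit of complex IV, had 131, 126 and 134 CPM in MASH livers and 776, 137 and 133 CPM in control livers. In both genes control 1 lies far above the other 5 libraries, which lie close together. The 12 separate members had small differences in control 2 and 3 as well. Atp5o had 112, 112 and 110.3 CPM in MASH livers, against 229, 127 and 117 CPM in control livers, and Uqcrh had 96.4, 94.5 and 96.4 CPM in MASH livers, against 114, 111 and 102 CPM in control livers. Ndufs7 had 42.6, 40.7 and 41.2 CPM in MASH livers, against 138, 44.1 and 43.0 CPM in control livers. By complex the medians were −0.53 for complex I, 0.14 for complex II, −0.39 for complex III, −0.63 for complex IV and −0.25 for complex V. Without control 1 and resmetirom 2 they were 0.00, −0.01, −0.02, 0.00 and −0.06 in the same order. The direction of the median over all members depends on scaling as well: without scaling factors it was 0.13, when all genes stood at 0.37.

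Control 1 did not raise the module evenly. Relative to MASH livers 64 members were higher and 15 lower in it, with an SD of 1.25 over the members on the log2 scale, compared with 0.16 and 0.13 in control 2 and 3. Ndufa5 was at 2.96 and Atp5b at −2.38. Atp5b had 200.0 CPM in control 1 and 1159 and 1134 CPM in control 2 and 3, and Sdha had 103 CPM in control 1 and 512 and 506 CPM in control 2 and 3. Atp5a1, Sdhd, Ndufs1, Ndufv1 and Cox7a2l were low there too, whereas Uqcrq, a small subunit of complex III, had 1122 CPM, against 207 and 208 CPM in control 2 and 3. The mitochondrially encoded subunits had a median of 4.36 in control 1. Hepatocyte markers summed to 163346 CPM in control 1, against 94294 and 106049 CPM in the other control livers, but only 4 of the 10 were above both of those livers (Alb, Apoa1, Ttr and Serpina1c) and 5 were below both. Cps1, the first enzyme of the urea cycle, had 676 CPM in control 1, against 4116 and 3538 CPM in control 2 and 3. Erythroid RNA summed to 3747 CPM against 482 and 565 CPM, and Kupffer cell RNA to 77.1 CPM against 395 and 333 CPM. The part of these in the levels of members was not tested.

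**Figure D4:**
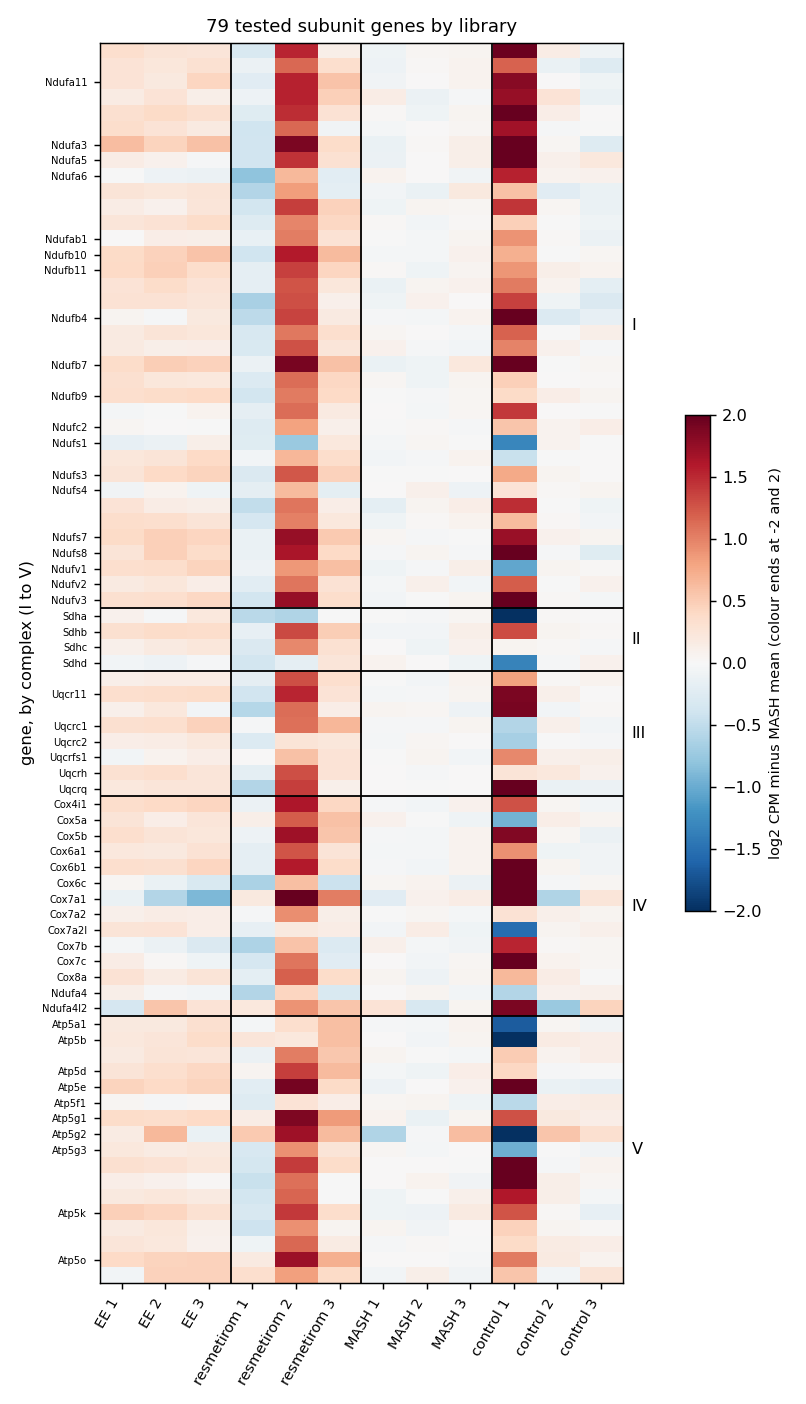
Each row is a tested member, ordered by complex (I to V, right edge) with the names of some members described in the text, and each column 1 of the 12 libraries. The colour gives log2 CPM minus the mean of MASH livers, with ends at −2 and 2. EE columns are pale red in most rows, resmetirom 2 is red in 76 of 79 rows, and control 1 mixes strong red with strong blue.

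Deviations of both outlying libraries varied with transcript length. In resmetirom 2, the 49 members with a principal transcript under 1 kb stood at a median of 1.32 above the mean of the other resmetirom livers on the log2 scale, and the 30 longer members at 0.86. In control 1 the same medians, against the other control livers, were 1.48 and 0.49. Over the 79 members, which share those libraries, Spearman's rho between length and deviation was −0.51 in resmetirom 2 and −0.35 in control 1, and over all genes with a known length −0.52 and −0.31. In EE against MASH livers the median log2 fold change was 0.24 for shorter and 0.22 for longer members, while all tested genes stood at 0.19 under 1 kb and at −0.04 above it. When length and GC content entered that fit as offsets, the median of members was 0.18 and that of all genes 0.05. Within EE livers, where deviations were small, rho with length was −0.55 in EE 1 and 0.46 in EE 3 over the members, and 0.01 in each over all genes.

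**Figure D5:**
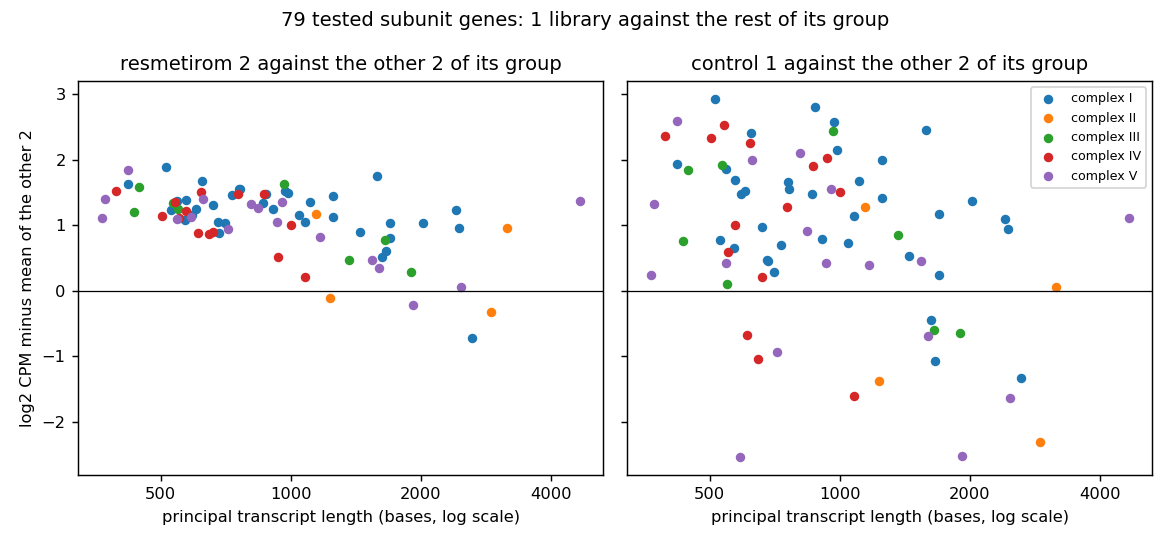
Log2 CPM of each tested member in resmetirom 2 (left) and control 1 (right) minus the mean of the other 2 libraries of its group (vertical axis), against the length of its principal transcript in bases (log axis), coloured by complex. Most short members lie above 0 in both panels, and control 1 spreads more widely than resmetirom 2, from −2.54 to 2.92.

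EE and resmetirom livers were also set against control livers, which shows how far each treatment left the module from chow-fed liver. These comparisons share control samples with the one above. For EE against control livers the median log2 fold change was −0.20, with 27 members estimated higher and 52 lower (45.6% of all genes were higher), and it was 0.24 without control 1. Uqcrc1 had 298, 300.1 and 329.6 CPM in EE livers, against 159.8, 255 and 229.9 CPM in control livers, and was 1 of 9 members (11.4%) higher without overlap, where 13.7% of all genes were, while 3 lay lower (Ndufa6, Ndufc2 and Cox7b, against 13.5% of all genes). Atp5b had 1199, 1231 and 1348 CPM in EE livers, against 200.0, 1159 and 1134 CPM in control livers, and was also among the 9. Cox7b had 108, 102 and 90.3 CPM in EE livers, against 318, 112 and 113 CPM in control livers. No member passed edgeR (0.100% of genes did), DESeq2 or either voom fit, and 4 had an unadjusted p below 0.05, all lower (16.1% of all genes). With EE and control livers alone and control 1 left out, 14 members were called, all higher in EE livers, where 12.6% of genes were called and 4.64% were called higher. Atp5e, the epsilon subunit of ATP synthase, led them, with 116, 112 and 116 CPM in EE livers and 78.0 and 76.0 CPM in control 2 and 3 (log2 fold change 0.57, adjusted p = 0.0118).

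For resmetirom against control livers the median was 0.09, with 49 members estimated higher and 30 lower (51.3% of all genes were higher). It was 0.51 without control 1 and −0.35 without resmetirom 2, so its sign depends on single libraries. No member passed edgeR, where 3.16% of genes did, and 6 had an unadjusted p below 0.05 (22.9% of all genes), 5 higher and 1 lower. Atp5b was the 1 member (1.27%) higher without overlap, against 9.93% of all genes. Uqcrc1 had 235, 512 and 379 CPM in resmetirom livers, against 159.8, 255 and 229.9 CPM in control livers (log2 fold change 0.80, SE 0.28, adjusted p = 0.117, and 0.35 without control 1 and resmetirom 2). DESeq2 called it higher (adjusted p = 0.0427), where it called 11.0% of genes and 4.88% higher, and so did edgeR without resmetirom 1 (adjusted p = 0.0406), where 3.25% of genes were called and 1.67% higher. Voom with quality weights called 6 members, all higher (Uqcrc1, Cox5a, Ndufv1, Atp5d, Atp5g1 and Atp5o), where it called 15.1% of genes and 6.85% higher, and plain limma voom called 0. Without control 1 and resmetirom 2, edgeR called Ndufa4 lower (log2 fold change −0.53, SE 0.14, adjusted p = 0.0482), where 7.46% of genes were called and 3.99% were called lower. It had 127 and 152 CPM in resmetirom 1 and 3, and 201 and 204 CPM in control 2 and 3.

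EE livers against resmetirom livers sets the 2 treatments side by side at the single dose of each, 100 mg/kg and 3 mg/kg, which differ. The member median was −0.29, with 7 members estimated higher and 72 lower in EE livers (42.4% of all genes were higher), and it was 0.18 without resmetirom 2. No member passed edgeR (0.307% of genes did), DESeq2 or either voom fit, and 1 had an unadjusted p below 0.05 (11.8% of all genes). That one was Cox7a1, with 0.565, 0.381 and 0.289 CPM in EE livers and 0.732, 3.07 and 1.38 CPM in resmetirom livers, which rest on few counts (difference of −2.02 on the log2 scale, SE 0.76, edgeR adjusted p = 0.316, and −1.34 without control 1 and resmetirom 2). It was also the 1 member (1.27%) with all EE livers below all resmetirom livers, against 9.09% of all genes.

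A test for any difference among the 4 groups called 0 members with edgeR, where 1.60% of all genes were called. Uqcrc1 alone had an unadjusted p below 0.05 (edgeR adjusted p = 0.255), against 19.2% of all genes. Voom with quality weights called 8 members in this test (Cox5a, Cox7a1, Atp5d, Atp5g1, Atp5o, Uqcrc1, Ndufv1 and Ndufb10), where 25.0% of genes were called.

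Other genes of the pathway were described from 6 lists. For EE against MASH livers, the mitochondrial ribosomal proteins, which translate the mitochondrial transcripts, came closest to the subunits: 68 of 78 were estimated higher, with a median of 0.20, and 46 (59%) lay higher without overlap, where 16.7% of all tested genes did. The 13 genes of coenzyme Q synthesis had a median of 0.18, with 4 (30.8%) higher without overlap. The 48 tested assembly factors, which build the complexes, had a median of 0.02, with 13 (27.1%) higher without overlap, and the 14 electron and substrate carriers 0.01, with 6 (42.9%). The 13 mitochondrially encoded subunits had a median of −0.04 and 0 higher without overlap, and the 17 tested regulators a median of −0.12 with 3 (17.6%). Lower without overlap were 3 regulators (17.6%), 5 assembly factors (10.4%), 2 carriers (14.3%) and 1 coenzyme Q gene (7.69%), against 15.5% of all tested genes. The mitochondrially encoded subunits and the mitochondrial ribosomal proteins had 0 of these. The 3 lower regulators were Nrip1, Tfam and Gabpa. No gene of these lists passed edgeR in that comparison. Of the regulators, Ppargc1a, the coactivator PGC-1alpha, had 2.46, 3.92 and 3.41 CPM in EE livers, against 4.07, 4.14 and 3.83 CPM in MASH livers, which overlap. Tfam packages mitochondrial DNA and takes part in its transcription. It had 22.4, 17.8 and 24.3 CPM in resmetirom livers, against 31.0, 30.8 and 28.0 CPM in MASH livers. All were lower without overlap (log2 fold change −0.48, SE 0.16, edgeR adjusted p = 0.199). In EE livers Tfam had 24.3, 24.1 and 22.9 CPM, also all lower (log2 fold change −0.33, SE 0.16, edgeR adjusted p = 0.679). Gabpa lay lower without overlap in both treatments too. It had 17.0, 20.2 and 18.2 CPM in EE livers and 17.2, 15.4 and 19.4 CPM in resmetirom livers, against 28.6, 28.5 and 21.7 CPM in MASH livers. For resmetirom against MASH livers, 5 of the 17 regulators (29.4%) lay lower without overlap and 0 higher, against 12.3% and 11.6% of all genes. In that comparison 5 regulators were estimated higher and 12 lower. Esrra had 22.5, 52.0 and 41.8 CPM in resmetirom livers, against 19.5, 24.8 and 26.3 CPM in MASH livers, which overlap. Tfb1m lay higher without overlap in EE livers (6.83 ± 0.545 CPM, against 5.31 ± 0.752 CPM in MASH livers, SD, n = 3 each). Over the 6 lists and 6 comparisons edgeR called 1 gene, Ucp2, an uncoupling protein relative, with 99.5, 59.8 and 62.5 CPM in resmetirom livers and 26.4, 24.8 and 23.2 CPM in control livers (log2 fold change 1.58, SE 0.27, adjusted p = 0.0151), in the comparison where 3.16% of all genes were called.

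Some subunit genes fall outside the rule by their symbols. Cyc1, the cytochrome c1 of complex III, had 194, 197 and 208 CPM in EE livers, against 153, 151 and 166 CPM in MASH livers, and Usmg5, a small subunit of ATP synthase, 58.0, 58.9 and 56.8 CPM in EE livers, against 46.8, 50.8 and 51.2 CPM in MASH livers. Neither overlapped. Ndufb4c, annotated as a pseudogene of Ndufb4, carried 18.6 to 131 CPM, so the level of Ndufb4 itself, 15.4 to 114 CPM, is uncertain.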

How the data were processed

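RNA was taken up in TRIzol, and libraries were stranded oligo(dT) libraries read as pairs of 150 bases on a NovaSeq X Plus, per the labels' protocols. The submitters' processing notes name fastp and the build GRCm39. Which aligner, counting tool, annotation release and strand setting were used is not given in the sources used here, so reads of overlapping genes may be shared. Values in the deposited table are expected counts by Ensembl gene and library, not scaled by the authors, and were rounded to whole numbers.

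Symbols, biotypes and transcript lengths came from GENCODE M21 (GRCm38), which named 22616 of 28036 identifiers. The test was the robust quasi-likelihood F test of edgeR 4.0.16 (R 4.3.3) on all 12 libraries in 1 fit with 8 residual degrees of freedom, after TMM scaling and filterByExpr by group. The adjusted p (Benjamini-Hochberg over 13988 genes) had to lie below 0.05. CPM use TMM-scaled totals, so 1 CPM stands for 9.95 to 26.0 counts, and a prior count of 2 was used on the log scale. The biological coefficient of variation was 0.334. The SE is the log2 fold change divided by the square root of F.

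Members, lists, tests and the rule for named genes (smallest p, extremes of each complex, core subunits, isoform sets) were chosen with earlier results of these data known, and not every gene under that rule is reported here. Same-numbered EE and MASH libraries deviated together (correlations 0.19, 0.16 and 0.15). All other pairs of numbers were below 0, but deviations from group means push them there once same-numbered pairs are positive. Between other groups, libraries of unlike number reached 0.48 (resmetirom 2 with control 1). The labels state no pairing. It is taken from the same data that the block is used on, and calls with the block depend on a pairing that may not exist. In all 12 libraries the block called 0 members. Alternatives used other scalings, DESeq2 1.42.0, limma 3.58.1, filters, fits of the compared groups, offsets and left-out libraries. The fits were also run on counts simulated from means pooled over libraries. Those counts held no outlying libraries, length trend or pairing, so that run cannot judge the fits on these features.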

Additional observations from a re-analysis of the deposited data

How the results depend on the processing

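Of the 6 comparisons, 0 had a member called by edgeR in all 12 libraries. Where DESeq2 or a voom fit called 0 members, the share of all genes it called is not given here. With only the compared groups, EE against MASH called 11 members, 4 with length and GC offsets (Ndufb2, Ndufb7, Atp5g1, Atp5l), 34 with the replicate block, 18 with both and 6 (all lower) without scaling factors. With only the compared groups and 1 library left out, it called 0 to 11. The block changed no other call of members. Voom with quality weights called 4 members for resmetirom against MASH, 6 for resmetirom against control and 8 for any difference among groups. For resmetirom against control, DESeq2 called 1, the fit without control 1 and resmetirom 2 called 1, and fits leaving out 1 library called 0 to 1. For EE against control, 14 were called with only the compared groups and control 1 left out.

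The member median for MASH against control was 0.1328 without scaling factors (in all libraries or only the compared groups), −0.0113 without control 1 and resmetirom 2, and −0.0028 when those were also left out of a fit of the compared groups. For EE against MASH it was −0.0694 without scaling factors (−0.0696 with only the compared groups), 0.0048 when mitochondrially encoded and Mup genes were removed as well, 0.1818 with offsets, 0.1788 with offsets and the replicate block, 0.1568 and 0.1566 for these with only the compared groups, and 0.1826 with offsets and both outlying libraries left out. For resmetirom against MASH it was 0.0326 with only the compared groups and resmetirom 2 left out. For EE against control it was 0.2226 without both libraries and 0.2234 with only the compared groups and control 1 left out. Leaving out 1 library gave −0.6181 to −0.0163 for MASH against control, 0.2188 to 0.2665 for EE against MASH (0.2147 to 0.2638 with only the compared groups), 0.0441 to 0.7969 for resmetirom against MASH, −0.3762 to 0.2382 for EE against control, −0.3512 to 0.5092 for resmetirom against control and −0.5521 to 0.1817 for EE against resmetirom. Why these values move was not tested. The choice of libraries in the fits of compared groups with offsets, block or left-out libraries, and of removing Mup genes, was made after seeing the data. Cox7a1, Ndufa4l2, Atp5g2 and Atp5s had few counts, which limits their precision.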
